A study of Rattus norvegicus with 12 samples.

Results

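Iron and haem handling was followed through 10 genes: the haem oxygenases Hmox1 and Hmox2, the iron carriers and receptors Tfrc and Tf, the transporters Slc40a1 and Slc11a2, the ferroxidase Cp, the hormone gene Hamp, and the haem synthesis genes Alas1 and Fech. Every probe set of the rat array whose annotation gives one of these symbols alone was taken. This rule found 15 of 31099 probe sets, for 9 of the 10 genes and of the 14218 genes with a single symbol. Tf, the plasma iron carrier transferrin, was represented only by 2 probe sets annotated to both Srprb and Tf, and these were not used.

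CRI-G1-RS, the rotenone-sensitive subclone, was compared with CRI-G1-RR, the rotenone-resistant original clone, with 6 biological samples and 6 arrays for each line. Both belong to CRI-G1, an insulin-secreting rat islet tumour line, both were grown in high-glucose medium with serum, and neither received a treatment. Rotenone inhibits complex I of the mitochondrial respiratory chain. CRI-G1-RS is 1 subclone, so what belongs to the stress phenotype and what belongs to the clone cannot be told apart.

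Cells take up iron bound to transferrin through the transferrin receptor, move it out of endosomes through the transporter encoded by Slc11a2, and release any surplus through ferroportin, the product of Slc40a1. Part of the iron is built into haem in the mitochondrion, and haem oxygenases open the haem ring again, which frees the iron. Iron that is not bound can catalyse the formation of hydroxyl radicals, and iron handling is for this reason often studied together with oxidative stress. In mammals the transferrin receptor and ferroportin transcripts carry iron-responsive elements, so that their use and stability follow the iron level of the cell.

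Values are deposited linear signals, in arbitrary units scaled to the same trimmed mean on every array, and they are given as mean ± SD of the 6 arrays of a line. Fold changes are differences on the log2 scale (log2FC), CRI-G1-RS minus CRI-G1-RR, of quantile-normalized log2(signal + 16), tested by limma with p-values adjusted over all 31099 probe sets. The threshold was an adjusted p of 0.05. The added 16 makes the log2FC of dim probe sets smaller than the ratio of their signals, and no signal is set against that of another probe set, since probes differ in brightness.

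Of the 15 probe sets, 4 were lower and 0 were higher in CRI-G1-RS cells, and 11 did not pass the test. At an unadjusted p under 0.05, limma gave 0 higher and 5 lower, and the exact permutation test 0 higher and 6 lower. Each of these counts holds the 3 probe sets of Slc40a1. The share of all probe sets at an unadjusted p is not given here, so these counts have no comparison. The 4 that passed the adjusted test are the 3 probe sets of Slc40a1 and the 1 of Alas1. They make up 26.7% of the 15, where 31.7% of all probe sets passed the test. Counted as genes, each by 1 probe set, 2 of 9 differed (22.2%), against 39.2% of all genes. For single directions the whole array gave 15.4% lower and 16.3% higher. The median log2FC of the 15 probe sets was -0.13, and that of all probe sets was 0.01. The normalized arrays of the lines did not overlap for 4 of the 15 probe sets, which are the same 4, and this was so for 20.7% of all probe sets, or 9.97% in this direction.

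**Figure D1:**
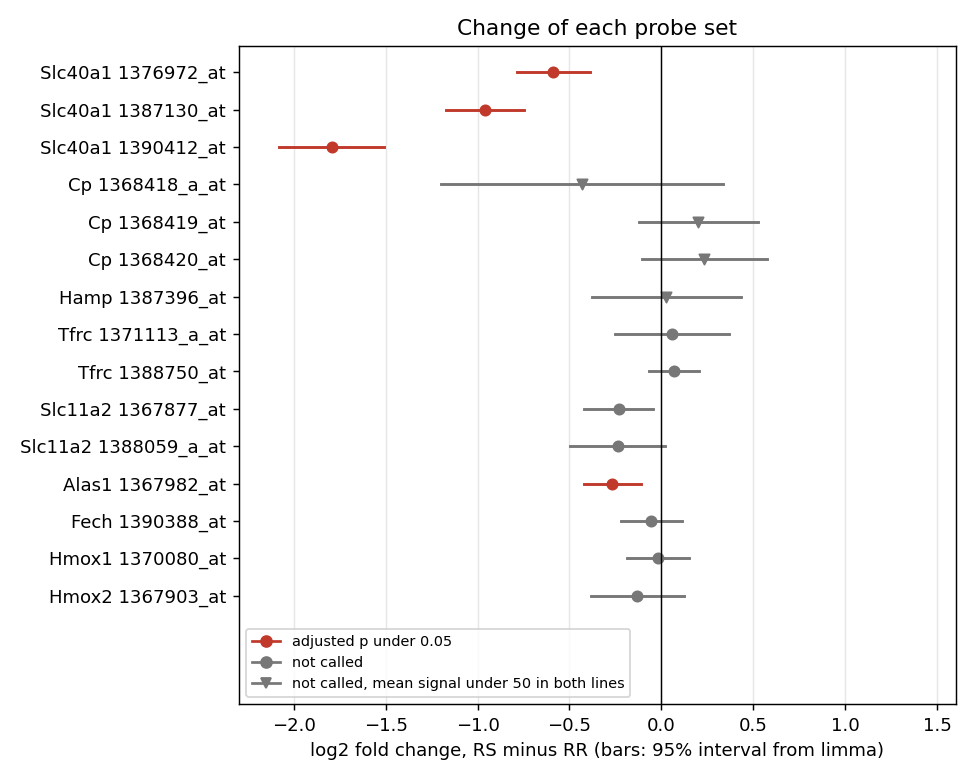
Log2 fold change (log2FC) of each of the 15 probe sets, CRI-G1-RS minus CRI-G1-RR, with its 95% interval from limma. The intervals of the 3 Slc40a1 probe sets and Alas1 lie left of 0, as does that of Slc11a2 1367877_at, which did not pass the adjusted test. All other intervals, those of Hmox1, Hmox2, Tfrc and Fech among them, include 0.

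The array data as a whole separated the lines. Pairs of CRI-G1-RS arrays had Pearson correlations of 0.978 to 0.987 over all probe sets, pairs of CRI-G1-RR arrays 0.979 to 0.987, and pairs across the lines 0.952 to 0.965. None held identical values. Of 8 measured beta cell markers 6 were higher in CRI-G1-RS cells and 0 lower, where 21% of all genes were higher and 18.3% lower. Ins1 and Iapp did not pass the test, with log2FC values of -0.06 and 0.28 (adjusted p = 0.408 and 0.0992 by limma). The authors reported Ins1 as higher by array and by quantitative PCR. The summed signal of the 8 was 20044 to 22974 on CRI-G1-RS arrays and 15688 to 17766 on CRI-G1-RR arrays. Replicate 2 of CRI-G1-RS stood apart in its control probes for transcript ends. Its ratio of 3′ to 5′ signal was 8.28 for beta-actin and 1.53 for GAPDH, where the other 11 arrays had 2.75 to 3.79 and 1.23 to 1.29. For some of the member probe sets on which it was the highest or lowest array, the value without it is also given.

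Slc40a1 had the largest difference of the 9 genes. On 1390412_at the 6 CRI-G1-RS arrays read 134, 129.5, 123, 121, 107 and 99.1, against 606, 491, 383, 308, 459.6 and 468 on the CRI-G1-RR arrays. The highest CRI-G1-RS array thus lay well below the lowest CRI-G1-RR array. The means were 119 ± 13.3 in CRI-G1-RS cells and 452 ± 101 in CRI-G1-RR cells (SD, n = 6 each), a signal 3.81-fold lower in CRI-G1-RS cells. The log2FC was -1.79 (standard error 0.13, 95% interval -2.08 to -1.51, adjusted p = 3.73e-07). With 6 arrays against 6, the two-sided exact permutation p was 0.00216, the smallest this design can give. It was the 1 of the 15 probe sets with a log2FC of -1 or lower, as had 2.12% of all probe sets.

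The other probe sets of the gene gave the same direction and smaller differences. On 1387130_at the CRI-G1-RS arrays ran from 119.9 through a median of 147 to 161, and the CRI-G1-RR arrays from 224 to 338. The means were 146 ± 15.2 in CRI-G1-RS cells and 295 ± 41.0 in CRI-G1-RR cells (SD, n = 6 each), a log2FC of -0.96 (standard error 0.10, adjusted p = 6.59e-06). On 1376972_at the CRI-G1-RS arrays ran from 56.0 to 77.3, and the CRI-G1-RR arrays from 80.6 to 128. Its log2FC was -0.59 (standard error 0.09, adjusted p = 2.49e-04), from means of 65.2 ± 8.22 in CRI-G1-RS cells and 105 ± 18.3 in CRI-G1-RR cells (SD, n = 6 each). On each of the 3 probe sets the 6 CRI-G1-RS arrays lay below the 6 CRI-G1-RR arrays.

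**Figure D2:**
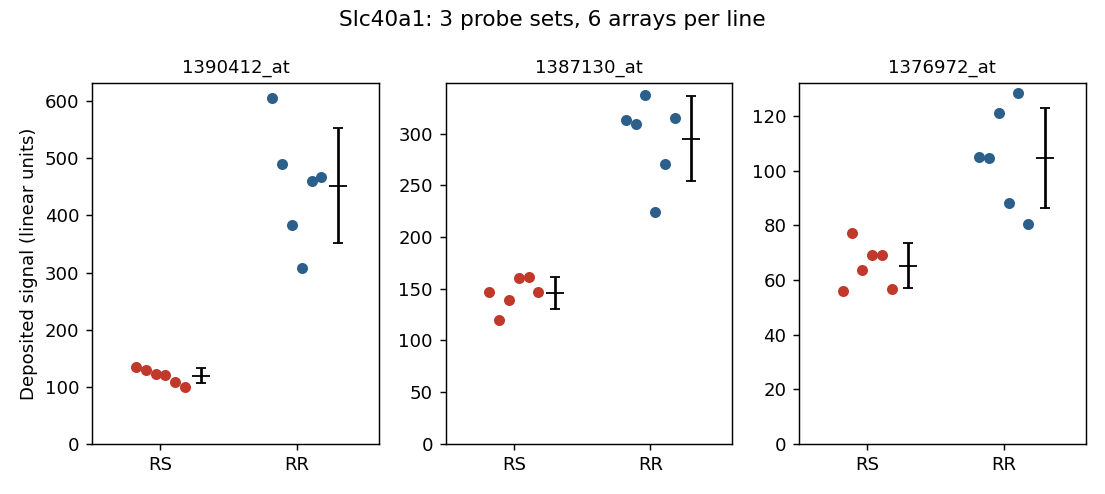
Deposited linear signal of the 3 Slc40a1 probe sets on each array, CRI-G1-RS left and CRI-G1-RR right, with the mean and SD of 6 arrays beside the points; each panel has its own axis. All CRI-G1-RS points lie below all CRI-G1-RR points, by 3.81-fold between the means on 1390412_at, 2.03-fold on 1387130_at and 1.61-fold on 1376972_at.

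How far Slc40a1 differed depended on the probe set. The log2 ratio of 2 probe sets on the same array was compared between the lines for 5 pairs, which were chosen after the values had been seen. The change on 1390412_at was lower than that on 1387130_at by a log2 difference of -0.83 and than that on 1376972_at by -1.21 (two-sided exact permutation test, p = 0.00216 each, adjusted over the 5 pairs p = 0.00541). Between 1387130_at and 1376972_at the difference was -0.37 (exact permutation p = 0.0216, adjusted p = 0.0361). Without replicate 2 of CRI-G1-RS the last was -0.29 (adjusted p = 0.0577, exact permutation test). The part of the transcript that each probe set reads was not examined here.

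RNA from a culture does not tell fewer cells with a transcript from less transcript per cell. Ferroportin is a known product of macrophages and liver cells, so markers of these were read on the same arrays. Of 6 macrophage markers 0 passed the test by limma, where 39.2% of all genes did, and 1 of the 6 had an unadjusted p under 0.05. Of the 6, only 2 averaged 50 or more in either line. Their summed signal was 165 to 193 on CRI-G1-RS arrays and 145 to 259 on CRI-G1-RR arrays, and the scavenger receptor Cd163 averaged 5.60 in CRI-G1-RS cells and 7.78 in CRI-G1-RR cells. Of 6 liver markers 2 were lower in CRI-G1-RS cells, Fgb with a log2FC of -2.0 and Alb with one of -0.47, and 0 were higher. The summed liver signal was 422 to 592 on CRI-G1-RS arrays and 989 to 1515 on CRI-G1-RR arrays. Most of the difference between these sums came from Fgb, which averaged 236 in CRI-G1-RS cells and 989 in CRI-G1-RR cells. Serpina1, Ttr, Apoa2 and Apoa1 did not pass the test (log2FC -0.15, 0.25, -0.21 and 0.01). Apoa1, a defining liver transcript, averaged 1.66 in CRI-G1-RS cells and 1.59 in CRI-G1-RR cells. The part of these markers in the Slc40a1 difference was not tested.

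The 250 bases before the Slc40a1 start are shown because this is the member with the largest difference. In RefSeq on GRCr8 they lie at chr9:55543461-55543710 on the minus strand, within the annotated gene at chr9:55525457-55633463, so this start is not its only annotated one. GC makes up 74% of the window, and the median over 33469 such windows was 51.2%. Capitals mark the letters TATAA, whose first base is 54 bases before the start.
Slc40a1: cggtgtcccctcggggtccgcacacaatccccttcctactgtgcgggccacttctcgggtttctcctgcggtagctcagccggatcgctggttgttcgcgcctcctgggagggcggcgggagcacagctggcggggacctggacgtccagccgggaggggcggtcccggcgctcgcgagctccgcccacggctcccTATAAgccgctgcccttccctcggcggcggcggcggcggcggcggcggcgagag

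TATAA stood in 24% of all windows of this length, and among the members also in those of Cp and Tf. It was added to the search after the sequences had been viewed. Of the other motifs searched on both strands, TGACNNNGC (the antioxidant response element), CACGTG (an E-box), ACGTG (a hypoxia element, which CACGTG contains) and CCAAT, none was found in the Slc40a1 window. These were present in 10.1%, 5.59%, 16.6% and 34% of all windows.

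Neither Tfrc nor Slc11a2 passed the test. Tfrc encodes the transferrin receptor. On 1388750_at the CRI-G1-RS arrays ran from 3932 through a median of 4297 to 4884, and the CRI-G1-RR arrays from 4007 to 4817. The ranges overlapped over nearly all of their length. The means were 4371 ± 355 in CRI-G1-RS cells and 4342 ± 305 in CRI-G1-RR cells (SD, n = 6 each), with a log2FC of 0.07 (95% interval -0.07 to 0.20, adjusted p = 0.470). With median centring in place of quantile normalization this value was -0.01, so it has no settled direction.

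The second Tfrc probe set, 1371113_a_at, had means of 2002 ± 389.8 in CRI-G1-RS cells and 1938 ± 254 in CRI-G1-RR cells (SD, n = 6 each), and a log2FC of 0.06 (95% interval -0.25 to 0.37, adjusted p = 0.822). Replicate 2 of CRI-G1-RS was the lowest of the 12 arrays on it at 1273, where the other CRI-G1-RS arrays had 1942 to 2386. On 1388750_at the same array was the highest of the 12 at 4884. The log2 ratio of 1371113_a_at to 1388750_at was -1.82 on this array and -1.33 to -0.95 on the other 11. Without it the log2FC of 1371113_a_at was 0.18 (adjusted p = 0.201). Whether the transcript-end ratio of this array has a part in these values was not tested.

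**Figure D3:**
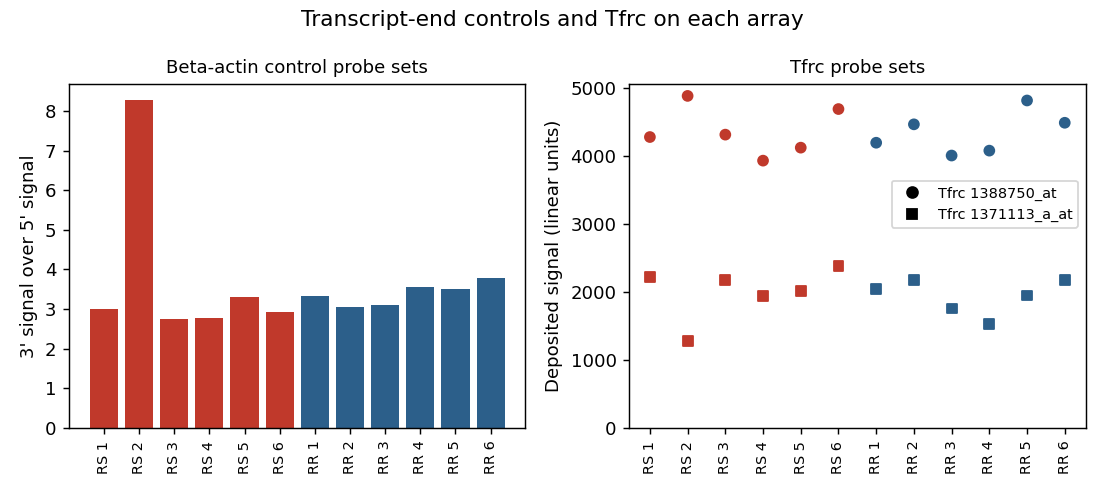
Left, ratio of 3′ to 5′ signal of the beta-actin control probe sets on each array; right, deposited linear signal of the 2 Tfrc probe sets on the same arrays, CRI-G1-RS in red and CRI-G1-RR in blue. Replicate 2 of CRI-G1-RS has a ratio of 8.28, the highest Tfrc 1388750_at signal (4884) and the lowest Tfrc 1371113_a_at signal (1273).

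The Tfrc window is shown beside that of Slc40a1, as the importer beside the exporter. It lies at chr11:81690319-81690568 on the minus strand of GRCr8 and holds 64.8% GC. Capitals mark CCAAT, 153 bases before the start, and ACGTG, 31 bases before it.
Tfrc: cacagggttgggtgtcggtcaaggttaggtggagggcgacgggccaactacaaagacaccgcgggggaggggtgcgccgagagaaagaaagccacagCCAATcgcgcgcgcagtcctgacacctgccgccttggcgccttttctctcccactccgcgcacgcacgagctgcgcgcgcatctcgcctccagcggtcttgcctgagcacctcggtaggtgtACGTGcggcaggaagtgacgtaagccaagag

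Slc11a2 encodes DMT1, which carries ferrous iron across the endosomal and the apical membrane. On 1367877_at the CRI-G1-RS arrays ran from 194 through a median of 243 to 261 and the CRI-G1-RR arrays from 239 to 327, so the lines overlapped. The means were 238 ± 24.0 in CRI-G1-RS cells and 279 ± 31.0 in CRI-G1-RR cells (SD, n = 6 each), and the log2FC of -0.23 (95% interval -0.42 to -0.05) just missed the threshold at an adjusted p of 0.0575. It passed the threshold in 3 of 19 other settings. On 1388059_a_at the log2FC was -0.24 (95% interval -0.50 to 0.02, adjusted p = 0.160). There replicate 2 of CRI-G1-RS read 136, where the other CRI-G1-RS arrays read 179 to 202, and replicate 5 of CRI-G1-RR read 300.4, where the others read 189 to 216. Without replicate 2 of CRI-G1-RS the log2FC was -0.16 (adjusted p = 0.295). The ratio of the 2 Slc11a2 probe sets differed between the lines by a log2 value of -0.01 (exact permutation test, adjusted p = 0.963), or 0.08 without that array (adjusted p = 0.613).

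Cp and Hamp had low signals in both lines. Cp encodes ceruloplasmin, the copper-containing oxidase that converts exported iron to the form transferrin binds. Its 3 probe sets had means of 6.62 to 8.42 in CRI-G1-RS cells and 3.07 to 22.1 in CRI-G1-RR cells, and log2FC values of -0.43, 0.20 and 0.23 (adjusted p = 0.414, 0.361 and 0.305). The second, that of 1368419_at, was 0.05 without replicate 2 of CRI-G1-RS (adjusted p = 0.642), which read 21.7 there. No direction is given for Cp, since single arrays made up much of these means. On 1368418_a_at the CRI-G1-RR arrays had a median of 6.47 and a highest value of 76.1. Hamp encodes hepcidin, the hormone that closes ferroportin. It averaged 32.3 ± 7.76 in CRI-G1-RS cells and 32.1 ± 12.8 in CRI-G1-RR cells (SD, n = 6 each), with a log2FC of 0.03 (95% interval -0.38 to 0.43, adjusted p = 0.938). At such signals a modest change would not be seen.

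**Figure D4:**
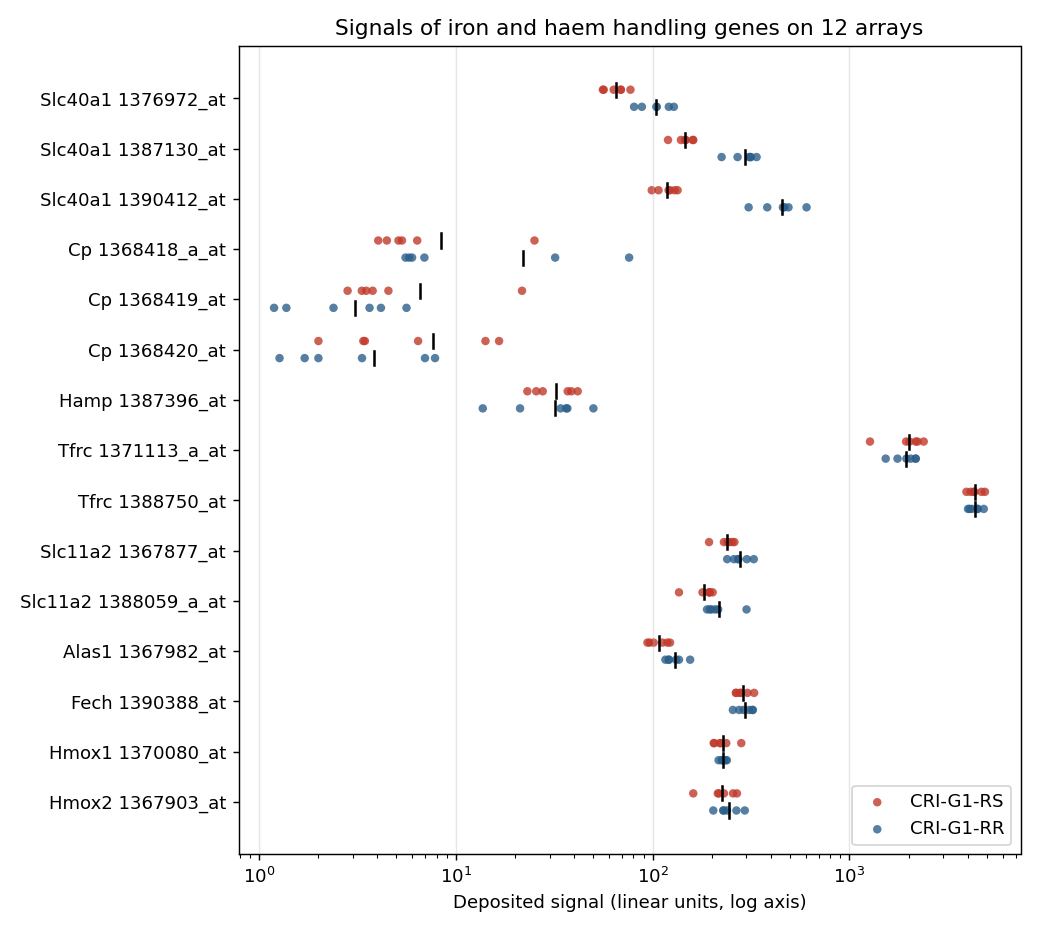
Deposited linear signal (log axis) of the 15 probe sets on each array; the upper row of each pair is CRI-G1-RS and the lower CRI-G1-RR, and the bar marks the mean of 6 arrays. The lines part at Slc40a1 and overlap at the other probe sets.

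Alas1 encodes the housekeeping 5-aminolevulinate synthase, which catalyses the first and rate-limiting step of haem synthesis. On 1367982_at the 6 CRI-G1-RS arrays read 112, 119, 94.2, 123, 101 and 96.7, against 132, 136, 155, 116, 121 and 121 on the CRI-G1-RR arrays. The highest CRI-G1-RS signals reached into the CRI-G1-RR range before normalization, while the normalized values of the lines did not overlap. The means were 108 ± 11.9 in CRI-G1-RS cells and 130.3 ± 14.4 in CRI-G1-RR cells (SD, n = 6 each), a signal 1.21-fold lower in CRI-G1-RS cells. The log2FC was -0.27 (standard error 0.07, 95% interval -0.42 to -0.11, adjusted p = 0.0122), with a two-sided exact permutation p of 0.00216. It was below 0 in each setting tried, at -0.30 to -0.23, with adjusted p from 0.0052 to 0.044 by limma.

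The Alas1 window is given as that of the second member that differed. It lies at chr8:115768643-115768892 on the minus strand of GRCr8, just before the gene at chr8:115755238-115768642, and holds 64% GC. None of the 5 motifs was found in it, so it has no capitals.
Alas1: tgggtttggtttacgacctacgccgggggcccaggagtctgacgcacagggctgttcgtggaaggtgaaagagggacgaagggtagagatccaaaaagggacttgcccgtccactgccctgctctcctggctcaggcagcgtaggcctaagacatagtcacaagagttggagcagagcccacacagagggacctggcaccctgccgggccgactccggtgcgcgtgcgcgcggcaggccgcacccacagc

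Fech encodes ferrochelatase, the last enzyme of the path, which inserts iron into protoporphyrin. Its signal was 265 through a median of 279.7 to 328 on CRI-G1-RS arrays and 256 to 323 on CRI-G1-RR arrays, and the lines overlapped throughout. The log2FC was -0.05 (95% interval -0.22 to 0.11, adjusted p = 0.665). Erythroid Alas2, the other 5-aminolevulinate synthase, averaged 18.4 in CRI-G1-RS cells and 21.8 in CRI-G1-RR cells.

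The haem oxygenases did not pass the test. Hmox1, which is induced by oxidative stress and by haem itself, read 205 through a median of 221 to 282 on CRI-G1-RS arrays and 217 through 229 to 239 on CRI-G1-RR arrays. The highest CRI-G1-RS value was that of replicate 2. The log2FC was -0.02, with a 95% interval of -0.18 to 0.15 (adjusted p = 0.912), and without that replicate -0.08 (adjusted p = 0.377). A difference as large as that of Alas1 lies outside this interval. Hmox2, the constitutive form, averaged 225 ± 37.9 in CRI-G1-RS cells and 244 ± 32.1 in CRI-G1-RR cells (SD, n = 6 each), with a log2FC of -0.13 (95% interval -0.38 to 0.12, adjusted p = 0.459). Replicate 2 of CRI-G1-RS gave its lowest value, 161, and without it the log2FC was -0.04 (adjusted p = 0.785). In the Hmox2 window TGACNNNGC was found 95 bases and ACGTG 11 bases before the start.

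The other genes of iron and haem metabolism were read from 7 written lists that hold 94 genes with the members, 1 probe set each. Of the 83 measured, 19 were higher in CRI-G1-RS cells, 21 were lower and 43 did not pass the test. The shares of 22.9% higher and 25.3% lower compare with 21% and 18.3% of all genes, and the 48.2% in either direction with the 39.2% given above. The median log2FC over the 83 genes was -0.06, and over all genes 0.02. Without the members, 19 of 74 were higher and 19 lower. Among the called genes, Slc40a1 and Hpx had a log2FC of -1 or lower, as had 2.49% of all genes, and 0 of the 83 had one of 1 or higher, on the scale with 16 added to the signal.

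**Figure D5:**
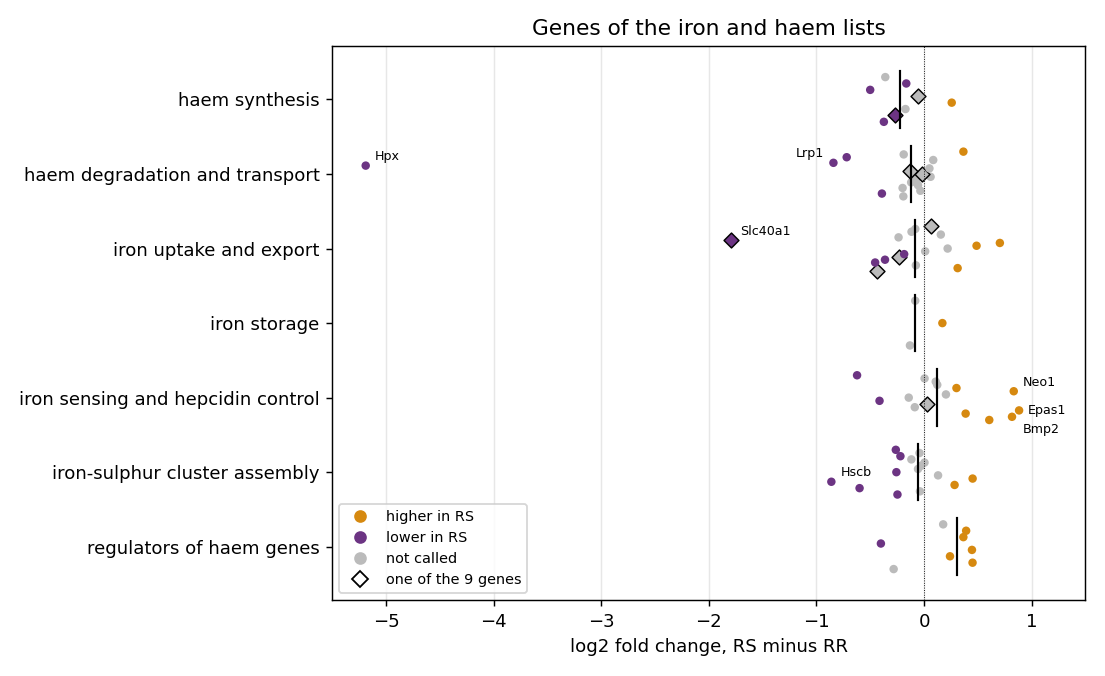
Log2 fold change, CRI-G1-RS minus CRI-G1-RR, of the 83 measured genes of the 7 lists; diamonds mark the genes of the 15 probe sets, and the black bar marks the median of a list. Most genes lie within 1 log2 unit of 0, and Hpx (-5.19) and Slc40a1 (-1.79) lie beyond it.

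Of 8 measured haem synthesis genes 4 were lower in CRI-G1-RS cells and 1 was higher, where 18.3% of all genes were lower and 21% higher. Ppox, protoporphyrinogen oxidase, averaged 116 ± 15.5 in CRI-G1-RS cells and 169 ± 20.1 in CRI-G1-RR cells (SD, n = 6 each), a log2FC of -0.50 (adjusted p = 0.00154). Alad and Urod, which form porphobilinogen and decarboxylate uroporphyrinogen, had log2FC values of -0.37 and -0.17 (adjusted p = 0.0131 and 0.0408). Cpox, coproporphyrinogen oxidase, stands between Urod and Ppox in the path and had one of 0.26 (adjusted p = 0.0290). The enzymes of one path thus differed in both directions.

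In haem degradation and transport, 4 of 17 genes were lower in CRI-G1-RS cells and 1 was higher, beside 18.3% and 21% of all genes. Hpx, which encodes the plasma haem carrier hemopexin, averaged 74.5 ± 17.7 in CRI-G1-RS cells and 3250.2 ± 298 in CRI-G1-RR cells (SD, n = 6 each). Lrp1, the receptor that takes up haem-hemopexin complexes, had a log2FC of -0.84 (adjusted p = 3.78e-05). Por, the reductase that supplies electrons to haem oxygenase, had one of -0.72 (adjusted p = 1.63e-05), and Abcb6, a porphyrin transporter, one of -0.39 (adjusted p = 0.0115). Slc48a1, which carries haem out of endosomes and lysosomes, was higher at 0.37 (adjusted p = 8.26e-04).

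Among 17 genes of iron uptake and export, 3 were higher and 4 were lower, beside 21% and 18.3% of all genes. Slc40a1 was among the lower ones. The zinc and iron importers Slc39a8 and Slc39a14 had log2FC values of 0.70 and 0.49 (adjusted p = 1.49e-04 and 2.32e-05), and the ferrireductase Cybrd1 one of 0.31 (adjusted p = 0.0113). Lcn2, the siderophore-binding lipocalin, its receptor Slc22a17 and the lysosomal channel Mcoln1 had ones of -0.45, -0.18 and -0.36 (adjusted p = 0.0193, 0.0240 and 0.00577). Iron storage gave 1 call among 3 measured genes, since neither ferritin chain had a probe set with a single symbol: Pcbp1, an iron chaperone, had a log2FC of 0.17 (adjusted p = 0.0157).

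Of 15 genes of iron sensing and hepcidin control, 6 were higher in CRI-G1-RS cells and 2 lower, beside 21% and 18.3% of all genes. Aco1, which as iron regulatory protein 1 binds iron-responsive elements, averaged 748 ± 99.4 in CRI-G1-RS cells and 482 ± 59.9 in CRI-G1-RR cells (SD, n = 6 each), a log2FC of 0.61 (adjusted p = 4.65e-04). Epas1, the hypoxia-inducible factor HIF-2 alpha, had one of 0.88 (adjusted p = 2.56e-05), the co-receptor Neo1 0.83 (adjusted p = 3.63e-07) and the ligand Bmp2 0.82 (adjusted p = 9.10e-05). The inhibitory Smad7 and the haemochromatosis gene Hfe had ones of -0.62 and -0.41 (adjusted p = 0.00383 and 0.0122).

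Of 15 genes of iron-sulphur cluster assembly, 6 were lower in CRI-G1-RS cells and 2 higher, beside 18.3% and 21% of all genes. The lower ones were led by the co-chaperone Hscb at -0.86 (adjusted p = 6.09e-07) and the ferredoxin Fdx1 at -0.60 (adjusted p = 5.10e-05), followed by Nubp2 and Isca1, 2 assembly factors, at -0.26 each (adjusted p = 0.0160 and 7.80e-04). The mitochondrial Hsp70 Hspa9, which works with Hscb, was higher at 0.45 (adjusted p = 2.86e-05), and the glutaredoxin Glrx5 at 0.28 (adjusted p = 0.00301). Of 8 regulators of haem genes, 5 were higher and 1 lower, beside the same shares of 21% and 18.3%. Nfe2l2, which encodes the activator Nrf2, had a log2FC of -0.40 (adjusted p = 8.25e-04), and Keap1, which holds Nrf2 back, one of 0.45 (adjusted p = 4.39e-04). The authors' quantitative PCR did not bear out the lower Nfe2l2 transcript of the arrays, while it did give higher Keap1. By immunoblot they reported less nuclear Nrf2 protein and more Keap1 protein in CRI-G1-RS cells. They proposed that Nrf2 is regulated mainly after translation. Clpx, a mitochondrial unfoldase that acts on 5-aminolevulinate synthase, had a log2FC of 0.45 (adjusted p = 0.0123). The repressors Nr1d1 and Nr1d2 had ones of 0.37 and 0.39 (adjusted p = 0.0116 and 1.03e-04).

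The genes whose normalized values ran most like those of Slc40a1 1390412_at over the 12 arrays were St6galnac5, a sialyltransferase (Pearson r 0.989), Cers2, a ceramide synthase (0.986), Copb2, a coatomer subunit (0.983), Synj2bp, a mitochondrial outer membrane protein (0.980), and Optn, an autophagy receptor (0.979), out of 8683 genes whose signal averaged 100 or more. The arrays form 2 clusters, the lines, and much of such an r is the difference between them. With the mean of each line taken out, r was 0.79 for St6galnac5, 0.71 for Cers2, 0.77 for Copb2, 0.62 for Synj2bp and 0.55 for Optn. These genes were picked by r over the same 12 arrays, which favours high values here, so they are a description only. All were lower in CRI-G1-RS cells, with log2FC values of -1.46, -0.58, -0.29, -0.48 and -1.73 in the same order.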

How the data were processed

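Each of 12 samples gave total RNA for 1 Affymetrix array (Rat 230 2.0). The authors deposited linear signal intensities, and GCOS 1.4 is named in the submitters' processing notes. On each array the mean after trimming 2% was 250.068 to 250.075. The methods describe robust multi-chip averaging, which these values are not. Quantile normalization was followed by log2(signal + 16) and a linear model in limma 3.58.1 (R 4.3.3) that held the cell line alone. The Benjamini-Hochberg adjustment covered all 31099 probe sets, with no filter. On simulated data the fit recovered 83 of 100 changes of 1.5-fold and 98 of 100 of 2-fold, with 12 false calls among 31099 probe sets. Smaller changes, such as that of Alas1, are not covered by it. With no counts on arrays, precision rests on the number of arrays. The 6 samples of a line are labelled as biological samples, of passages collected in pairs.

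The members, the gene lists and the tests were chosen with earlier results of these data known. Named genes are each member with each probe set, up to 4 called genes per list and direction with the largest changes, and the 5 genes most like the member probe set of largest change. A listed gene is represented by its probe set of highest mean signal. Of 31099 probe sets, 20832 had 1 symbol, 436 several and 9831 none. Of the 94 listed genes 11, Tf and the ferritin chains among them, were not analysed here. Marker lists of erythroid, fibroblast and acinar cells had 0 calls by limma among 4, 5 and 5 measured genes (0, 0 and 1 at an unadjusted p under 0.05). Promoter windows are those of RefSeq on GRCr8, found for 9 of the 10 genes. The array probes' own coordinates were not used here.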

Additional observations from a re-analysis of the deposited data

Results flagged for a closer look

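Single arrays stood apart from the 5 others of their line in 5 of the 30 sets of 6 arrays (15 probe sets in each line), by the gap to the nearest array over the whole range, where values above Dixon's 95% critical value were taken. Chance gives about 5% of such sets. Replicate 2 of CRI-G1-RS was the array in 3 of the 5: it was lowest for Tfrc 1371113_a_at (gap over range 0.691) and for Slc11a2 1388059_a_at (0.67), and highest for Cp 1368419_at (0.885). Its transcript-end ratios are given beside the Tfrc values. Replicate 3 of CRI-G1-RS was highest for Cp 1368418_a_at (0.831), at 25.1 where the others had 4.04 to 6.38. Replicate 5 of CRI-G1-RR was highest for Slc11a2 1388059_a_at (0.733). None of the sets of the 4 probe sets that differed between the lines had such an array.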

How the results depend on the processing

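The 4 lower probe sets of Slc40a1 and Alas1 passed the test in each of the 19 other settings that kept an adjusted p of 0.05. These were another centring, deposited scaling alone, a pseudocount of 1, a replicate block, an intensity trend, array weights and a low-signal filter and leaving out each array. Leaving out the probe sets whose names end in _x_at, _s_at or _a_at gave 4 lower. None of the 4 has such a name, so this setting could not remove them. With at least a 2-fold change required on the scale with 16 added, 1 member probe set was lower in place of 4, and 0 listed genes were higher in place of 19 and 2 lower in place of 21. Leaving out 1 array gave 4 to 5 lower and 0 higher member probe sets, and 18 to 20 higher and 20 to 22 lower listed genes. Slc11a2 1367877_at passed the threshold with an intensity trend (adjusted p = 0.0454), a low-signal filter (0.0395) and without replicate 4 of CRI-G1-RR (0.0371), against 0.0575, and its adjusted p ran from 0.0371 to 0.122. The difference between Slc40a1 1387130_at and 1376972_at, an exact permutation test, missed it with a pseudocount of 1 (-0.34, adjusted p = 0.0794) and without replicate 2 of CRI-G1-RS (-0.29, adjusted p = 0.0577), alternatives chosen after seeing the data. The cause of these changes was not tested.

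The labels say that passages were collected in pairs, but not that equal numbers mark a pair. The deviations of same-numbered arrays from their line means had correlations of -0.05 to 0.16. Those of arrays with unlike numbers had -0.15 to 0.15, nearly the same range. Of 12 arrays, 4 correlated best with their own number. With the replicate number as a block, 0 member probe sets were higher and 4 lower, and 18 listed genes were higher and 17 lower.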

Other observations

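The genes around the members on GRCr8 were read as a description, over the 50 closest ones whose signal averaged 100 or more. The median log2 fold change of these was -0.13 around Slc40a1 on chromosome 9, a stretch of up to 8.54 Mb on each side, against -1.79 for the gene's 1390412_at. It was -0.0050 around Alas1 on chromosome 8, 0.21 around Tfrc on chromosome 11 and 0.20 around Cp on chromosome 2.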
